A study of Mus musculus with 15 samples.

Results

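Luminal-type endothelial cells (ECs) of the mouse aorta were taken here as ECs that carried mRNA of Vwf and of Cytl1 or Pgm5 and none of Plvap. Cells had to hold 200 to 7000 detected genes and at most 25% mitochondrial UMIs (unique molecular identifiers, 1 per captured RNA molecule), a UMI of at least 3 of the EC genes Cdh5, Pecam1, Kdr, Egfl7, Cldn5 and Tie1, no UMI of the leukocyte gene Ptprc or of the lymphatic gene Prox1, and at most 1 UMI of Col1a1, Lum and Pdgfra together. Of 130551 deposited cells, 128019 passed the filters on cells, 48087 of these passed the EC conditions, and 980 ECs (2.04%) met the whole rule. The rule read RNA only, so nothing here measured where in the vessel a cell had lain.

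ECs line every vessel and differ along the vascular tree: arterial ECs carry Notch targets and gap junction proteins, capillary ECs carry fatty acid transport genes, and venous ECs carry receptors for leukocytes. Von Willebrand factor, encoded by Vwf, is a clotting protein stored in Weibel-Palade bodies and is most abundant in ECs of larger vessels. Plvap builds the diaphragms of fenestrae and caveolae and is typical of veins and fenestrated capillaries, Cytl1 encodes a secreted cytokine-like protein, and Pgm5 encodes aciculin, a protein of cell-matrix and cell-cell junctions.

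The libraries came from whole aortas of C57BL/6N mice, cleared of blood with saline and of perivascular fat, digested with collagenase and elastase, sorted for viability and counted with a droplet method that reads the 3′ end of each RNA. Mice were young (3 months in the sample labels, 6 in the methods of the study) or old (27 months), and received vehicle or the plant flavonol fisetin, a senolytic, by oral gavage at 100 mg/kg/day given intermittently. The groups were Y VEH (young mice on vehicle), Y FIS (young mice on fisetin) and O FIS (old mice on fisetin), each with 2 libraries of females and 2 of males, and O VEH (old mice on vehicle), with 2 libraries of females and 1 of males. Each library pooled 3 mice according to the labels, and 2 to 3 according to the methods of the study, and was 1 replicate, so p-values measure the spread between pools.

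The luminal-type ECs had between 20 and 149 cells and between 89596 and 597637 UMIs per library (median 250083). Median UMIs per cell lay between 2542 and 5535 in them and between 2536.5 and 4489 in the other 47107 ECs. Of all barcodes, 2082 occurred in 2 libraries and 16 in 3, and 35 luminal-type ECs had a barcode that also occurred in another library, although no barcode was a luminal-type EC in 2 libraries. Doublets were called with Scrublet and kept: 1921 cells were called, among them 7 luminal-type ECs, but in 3 libraries the caller marked under 0.5% of cells and so cannot be relied on there.

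The markers that gave the cells their name were present by construction, and the values that follow describe the choice and test nothing. Vwf had a median of 3 UMIs and a maximum of 87 per cell, and 289 cells (29.5%) had 1 UMI. Cytl1 was detected in 695 cells (70.9%) and Pgm5 in 611 (62.4%). As CPM (a gene's share of all UMIs of the cells, scaled to 1e6), Vwf stood at 1082 against 397 in the other ECs, Cytl1 at 2526 against 288, and Pgm5 at 343 against 101. Free RNA in the droplets also gives such detections. Other cell types were chosen to have no UMI of the 6 EC genes, so droplets with free RNA of ECs were in part left out. Their shares may thus be low estimates of free RNA, but can also hold RNA that the cells made themselves. Vwf had a UMI in 5.37% of 11688 leukocytes (cells with Ptprc and no EC gene, median 6692.5 UMIs per cell). It had a UMI in 4.94% of 12118 fibroblasts (cells with Col1a1 and Pdgfra and no EC gene, median 10667). The median was 3514.5 UMIs in luminal-type ECs and 3692 in the other ECs. Cytl1 had a UMI in 3.36% of these leukocytes and 6.83% of these fibroblasts, and Pgm5 in 1.06% and 1.74%. As CPM, Cytl1 stood at 6.67 in the leukocytes and 42.25 in the fibroblasts, and Vwf at 7.17 and 4.87. Whether the fibroblasts made Cytl1 themselves was not tested.

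Summed over their cells and compared with the other ECs of the same libraries, luminal-type ECs held more mRNA of some arterial genes and of elastic fibre and matrix genes, and less mRNA of capillary genes for fatty acid uptake. Counts were summed per library and compared within libraries with edgeR's quasi-likelihood test, and a gene was called at an adjusted p under 0.05 (Benjamini-Hochberg) and a log2 fold change beyond 1. Of 12243 genes tested, 800 were called higher (6.53% of the genes tested) and 500 lower (4.08%). Since the cells were chosen by their RNA, these are descriptions of the chosen cells.

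Gkn3, a gastrokine gene known as a marker of arterial endothelium, was the clearest case. Its level in luminal-type ECs had a minimum of 86.7, a median of 329 and a maximum of 463 CPM over the 15 libraries (scaled by TMM), against a minimum of 4.90 and a maximum of 21.5 CPM in the other ECs. The ranges did not overlap, and the difference was 4.50 ± 0.12 (log2, SE), higher in 15 of 15 libraries. Of the leukocytes 0.171% and of the fibroblasts 0.792% had a UMI of Gkn3, with the limits given above, against 28.0% of luminal-type ECs and 1.43% of the other ECs. The gene lies at chr6:87360238-87365917 on the minus strand (GRCm39, the build of the files).

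Other arterial genes behaved alike in part. Bmx, a cytoplasmic tyrosine kinase of arterial endothelium, had 241, 457 and 698 CPM as minimum, median and maximum, against 19.8, 30.4 and 75.8 CPM in the other ECs, and differed by 3.29 ± 0.12 (log2, SE). Hey2, a transcription factor induced by Notch, differed by 4.15 ± 0.19, and the gap junction genes Gja5 (connexin 40) and Gja4 (connexin 37) by 2.97 ± 0.13 and 2.07 ± 0.12. The Notch ligand Jag1 was also higher, by 1.45 ± 0.10. The arterial transcription factor Sox17 did not differ past the threshold (0.14 ± 0.08, mean 203 against 188 CPM), and the Notch ligand Dll4 and the Notch target Hey1 had negative values of -0.87 ± 0.10 and -0.77 ± 0.14. Of the 20 arterial and Notch genes tested, 7 were called higher and 1 lower, with a median of 0.490 against -0.060 over all genes tested.

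Most of the wall matrix genes were called higher. Eln, the elastin gene, had 843, 1584 and 3404 CPM as minimum, median and maximum, against 89.4, 178 and 390 CPM in the other ECs, with no overlap and a difference of 2.90 ± 0.11 (log2, SE). Mgp, an inhibitor of calcification, differed by 2.40 ± 0.15, Clu, a secreted chaperone, by 2.81 ± 0.14, Htra1, a secreted protease, by 3.01 ± 0.12, and Lox, which crosslinks elastin and collagen, by 2.87 ± 0.14. Of 15 genes tested, 11 were called higher and none lower (median 1.73). Of 14 basement membrane genes tested, Col18a1 was called higher (2.18 ± 0.23) and 3 were called lower, Lamb1 (-1.31 ± 0.16), Col4a2 (-1.13 ± 0.07) and Nid2 (-1.09 ± 0.28), with a median of -0.509 and 4 positive values.

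Matrix genes are also fibroblast and smooth muscle genes. Eln had a UMI in 61.9% of the fibroblasts and 8.26% of the leukocytes, Htra1 in 82.7% and 8.39%, and Ptgis in 57.8% and 9.09%. The summed level of 8 fibroblast genes, all 8 with a UMI, ran from 426 to 1838 CPM per library (median 866) in luminal-type ECs and from 228 to 1685 CPM (median 488) in the other ECs. That of 8 smooth muscle genes ran from 62.5 to 7846 (median 240) and from 149 to 905 CPM (median 282). In luminal-type ECs, 78.5% of cells had a UMI of at least 1 of Col1a1, Lum, Pdgfra, Dcn, Col1a2 and Col3a1, against 69.8% of the other ECs. Of 211 luminal-type ECs and 14227 other ECs with none of these 6 transcripts, 199 and 12504 were in the 12 libraries with enough cells, which left out Y VEH F1, Y VEH F2 and Y FIS F1. Among these, 658 of 7361 genes tested were called, 361 of them higher (4.9%) and 297 lower (4.03%). Of 13 matrix genes tested there, 11 were called higher and none lower (median 2.11, all genes -0.086), with Eln at 3.10 ± 0.15 and Mgp at 2.61 ± 0.25, in a count added after the data had been seen. None of the 6 transcripts is in the smooth muscle list, so this count cannot show the part of smooth muscle RNA, which was not tested.

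Genes of vessel tone were split. Over the flow and nitric oxide list 7 of 24 genes were called higher and 2 lower, with a median of -0.140 against -0.060 over all genes tested. Most genes named below were called higher, and the 2 called lower are not among them. Ptgis, prostacyclin synthase, had 103, 211 and 356 CPM as minimum, median and maximum, against 8.81, 16.6 and 33.8 CPM in the other ECs, and differed by 3.28 ± 0.12 (log2, SE). Nos3, the endothelial nitric oxide synthase, had 184, 274 and 462 CPM against 106, 115 and 161 CPM, and differed by 1.03 ± 0.08. Edn1, which encodes the constrictor endothelin, differed by 1.87 ± 0.10, Ace, which makes angiotensin II, by 2.28 ± 0.10, and the calcium-activated potassium channels Kcnn3 and Kcnn4, which hyperpolarise ECs, by 3.72 ± 0.23 and 2.61 ± 0.24. The flow-responsive transcription factors Klf2 and Klf4 did not move past the threshold (-0.27 ± 0.08 and -0.19 ± 0.08), nor did the caveolin gene Cav1 (-0.37 ± 0.06).

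Further genes with large differences had other roles. Adh7, an alcohol dehydrogenase that oxidises retinol, had 48.2, 187 and 340 CPM against 1.70, 6.56 and 16.5 CPM and differed by 4.53 ± 0.16 (log2, SE). The ephrin ligand Efna5 differed by 4.02 ± 0.14, the receptor tyrosine phosphatase Ptprj by 3.90 ± 0.13, the matrix protein Spon1 by 3.55 ± 0.15, and the growth factor Bmp4 by 2.62 ± 0.12. Vcam1, an adhesion receptor for leukocytes, differed by 2.70 ± 0.14 and Selp, P-selectin of the Weibel-Palade bodies, by 1.89 ± 0.21. The venular chemokine receptor Ackr1 was lower (-2.70 ± 0.42, mean 2.33 against 12.3 CPM). These were picked from a list of 14 venous and adhesion genes, whose counts are not given for this comparison. Of the same list and unscaled by TMM, Lrg1 had a mean of 98.6 against 179 CPM and Nr2f2 168 against 167 CPM. Ackr3, a scavenging receptor for CXCL12, was higher (1.09 ± 0.11, in 15 of 15 libraries), and Cxcl12 itself was lower in every library (-1.61 ± 0.10, mean 428 against 1313 CPM).

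On the lower side stood capillary genes. Fabp4, a fatty acid binding protein, had 7138, 11090 and 18720 CPM as minimum, median and maximum in luminal-type ECs and 21350, 28530 and 45020 CPM in the other ECs, a difference of -1.54 ± 0.08 (log2, SE). Rgcc, a cell cycle regulator and capillary marker, differed by -2.02 ± 0.10, Car4, a carbonic anhydrase of capillaries, by -2.16 ± 0.11, the fatty acid receptor Cd36 by -1.35 ± 0.08, and Gpihbp1, which holds lipoprotein lipase at the capillary wall, by -1.69 ± 0.08. Of 16 capillary genes tested, 12 were called lower and none higher (median -1.57). Haemoglobin mRNA was also lower, with Hba-a1 at a mean of 38.4 against 1281 CPM (-4.73 ± 0.24), although 16.3% of luminal-type ECs, 15.8% of the other ECs and 19.4% of leukocytes had a UMI of it. The summed erythroid genes ran from 59.3 to 460 CPM per library in luminal-type ECs and from 235 to 11990 CPM in the other ECs, and the pericyte genes from 19.7 to 312 and from 135 to 399 CPM.

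Among 5 endocardial genes, all with a UMI, the summed level ran from 152 to 496 CPM in luminal-type ECs and from 108 to 282 CPM in the other ECs. Cgnl1 led it (2.12 ± 0.11), while the endocardial marker Npr3 was lower (-1.79 ± 0.15, mean 19.3 against 65.3 CPM). Platelet genes, which matter since platelets also hold von Willebrand factor, summed to between 4.47 and 179 CPM against 10.2 to 175, with Treml1 at 0 in the luminal-type ECs. Although Prox1 had to be 0, 6 lymphatic genes summed to between 26.8 and 745 CPM (median 55.1) in luminal-type ECs. In the other ECs they summed to between 58.4 and 207 CPM (median 80.2). The highest value of luminal-type ECs was 745 CPM in Y VEH and 258 CPM in O VEH.

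**Figure D1:**
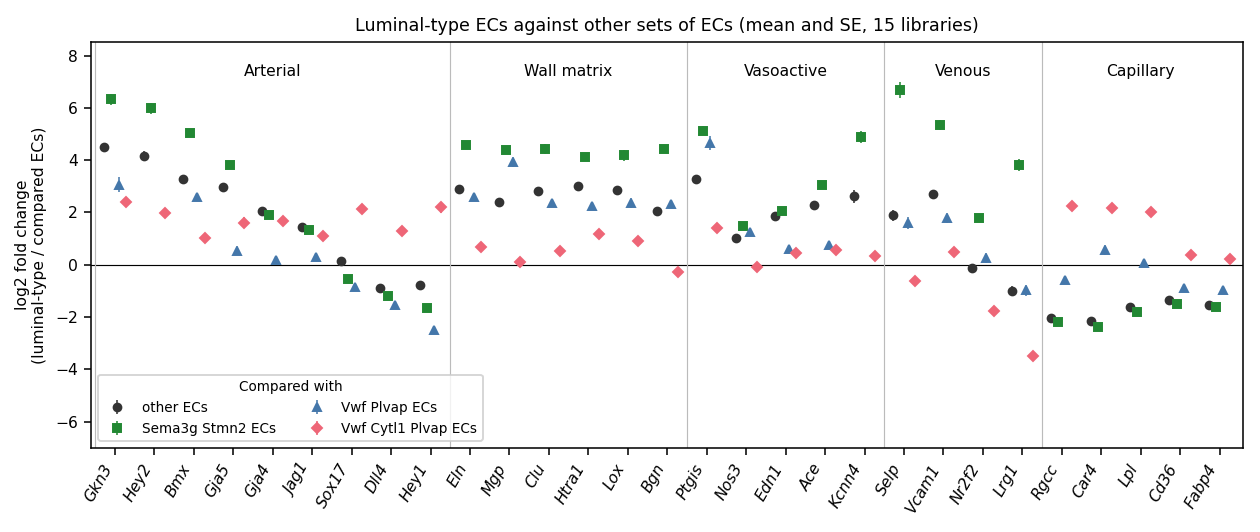
The plot shows log2 fold changes of named genes (y axis) between luminal-type ECs and each of 4 compared sets of ECs, as the mean and SE over 15 libraries, with genes on the x axis in 5 groups by role. Points above 0 are higher in luminal-type ECs. The 6 matrix genes plotted, a selection from the list of 15, lie above 2 against 3 of the sets and between -0.26 and 1.17 against the Vwf Cytl1 Plvap ECs, against which Sox17, Hey1 and the capillary genes Rgcc, Car4 and Lpl are positive and Lrg1 is -3.50. Hey2 and Kcnn4 have no point against the Vwf Plvap ECs, where they were not tested. The vasoactive genes plotted are a selection of genes called higher against the other ECs.

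The chosen cells were not uniform. The 15 genes with the largest differences from the other ECs, among called genes with a mean of at least 100 CPM that were higher in every library (Adh7, Gkn3, Efna5, Ptprj, Spon1, Gxylt2, Gcnt1, Bmx, Ptgis, Nos1ap, Itgbl1, Slc8a1, Htra1, Gata6os and Eln) were used as a yardstick, which describes cells and tests nothing because the genes were picked in these cells. At least 3 of the 15 had a UMI in 61.6% of luminal-type ECs and in 7.77% of the other ECs, and none of them in 13.8% of luminal-type ECs. Per library the share ran from 40.0% to 72.1% (median 62.5%) in luminal-type ECs and from 2.91% to 18.1% in the other ECs, without overlap.

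Which markers a cell carried went with the rest of its RNA. Of 326 cells with both Cytl1 and Pgm5, 81.6% had at least 3 of the 15 genes, of 369 with Cytl1 alone 71.5%, and of 285 with Pgm5 alone 26.0%. Levels of single genes, pooled over libraries and not tested, differed along with this. In cells with Pgm5 alone Gkn3 stood at 2.48 CPM (unscaled by TMM here) against 404 in cells with both markers, Bmx at 76.0 against 751, Rgcc at 655 against 102 and Fabp4 at 20060 against 3439. In the other ECs Rgcc had 1374 and Fabp4 28430 CPM.

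The threshold itself was soft. The 145 cells with 1 UMI of Vwf and 1 UMI of Cytl1 or Pgm5, just inside the rule, had at least 3 of the 15 genes in 12.4% of cases and none in 52.4%, with Gkn3 at 21.5 CPM, close to the 12.6 CPM of the other ECs. Just outside it, 1859 ECs with Vwf but neither Cytl1 nor Pgm5 reached 9.74%, and 2190 with Cytl1 or Pgm5 but no Vwf reached 6.53%. Cells that failed only by 1 UMI of Plvap (511) reached 61.8%, those with 2 or more UMIs of Plvap (3636) 62.6%, those with 2 rather than 3 EC genes (207) 52.7%, and those with 2 rather than 1 mesenchymal UMIs (23) 60.9%. These shares were not taken at equal depth: the median was 3514.5 UMIs per cell in luminal-type ECs, 3738 in cells with 1 UMI of Plvap and 7269.5 in cells with 2 or more. Per UMI the last of these held less, with Gkn3 at 36.4 CPM against 316 in luminal-type ECs and 269 in cells with 1 UMI of Plvap, and Eln at 827 against 1660 and 1474 CPM. With at least 2 UMIs asked of Vwf and of Cytl1 plus Pgm5, 581 cells remained, of which 78.8% had at least 3 of the genes and 2.58% none.

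**Figure D2:**
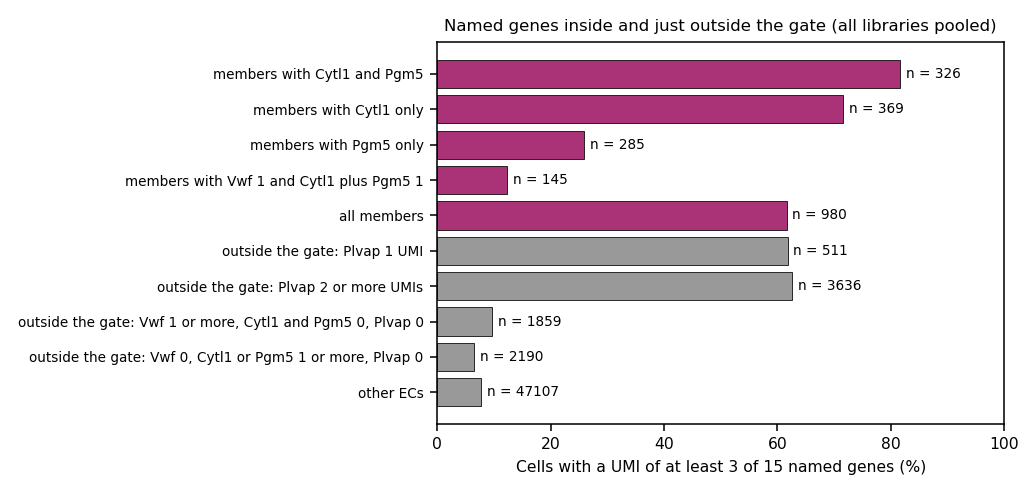
The bars give the share of cells (x axis, in %, from 0 to 100) with a UMI of at least 3 of the 15 named genes, pooled over 15 libraries, for luminal-type ECs by the markers they carried (purple) and for ECs outside the rule (grey), with the number of cells at each bar. Cells with Pgm5 alone (26.0%) and cells with 1 UMI of each marker (12.4%) stand far below the 61.6% of all luminal-type ECs, and cells left out only for 1 UMI of Plvap (61.8%) or for 2 or more (62.6%) have similar shares, the latter at a median of 7269.5 UMIs per cell against 3514.5 in luminal-type ECs.

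Of 7844 ECs with Vwf, 5005 also had Plvap, and 82.9% of these had Cytl1 or Pgm5, against 34.5% of the 2839 without Plvap, at median depths of 6827 and 3799 UMIs per cell. In all 5127 ECs had Vwf with Cytl1 or Pgm5, and 4147 of them had Plvap and were left out. These Vwf Cytl1 Plvap ECs were set against the luminal-type ECs in a comparison added after the data had been seen. Of 8496 genes tested, 260 were called higher in luminal-type ECs (3.06%) and 194 lower (2.28%). At 2000 UMIs per cell in both sets 4367 genes could be tested and 219 were called, 123 of them higher.

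Luminal-type ECs held more mRNA of most arterial genes tested than the Vwf Cytl1 Plvap ECs. Sox17 had a mean of 210 CPM in luminal-type ECs against 49.6 in Vwf Cytl1 Plvap ECs (2.13 ± 0.11, log2 and SE, higher in 15 of 15 libraries). The gene lies at chr1:4561151-4567784 on the minus strand (GRCm39). Hey1 differed by 2.19 ± 0.22, Hey2 by 1.98 ± 0.17, Gkn3 by 2.41 ± 0.15, Dll4 by 1.29 ± 0.13, and Sema3g, a semaphorin of arterial ECs, by 2.43 ± 0.14. Of 19 arterial genes tested, 14 were called higher and none lower (median 1.61, all genes 0.001). Capillary genes were also higher, 9 of 16 with 1 lower (median 1.43), with Rgcc at 2.24 ± 0.16, Car4 at 2.19 ± 0.18 and Lpl, lipoprotein lipase, at 2.03 ± 0.13. Rgcc, pooled over libraries, had 655 CPM in luminal-type ECs with Pgm5 alone, 325 with Cytl1 alone and 102 with both. The part of cells with Pgm5 alone in the capillary and arterial values was not tested. Plvap split these sets and is typical of veins, so arterial and venous differences between them may be in part built in. Unscaled by TMM, Sox17 had a mean of 206 CPM in luminal-type ECs and 181.5 in the other ECs. It had 302 CPM in Sema3g Stmn2 ECs and 376 in Vwf Plvap ECs. Hey1 and Dll4 had negative values against the other ECs, as given above.

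Of 12 venous genes tested in the same comparison, 5 were called lower and none higher (median -0.686), and 4 had positive values, with the apelin receptor gene Aplnr at 0.92 ± 0.18. Lrg1, a glycoprotein of venous and inflamed endothelium, had 101 against 1089 CPM (-3.50 ± 0.15), the alarmin Il33 26.7 against 160 CPM (-2.54 ± 0.14), and the venous transcription factor Nr2f2 172 against 565 CPM (-1.78 ± 0.10), each lower in 15 of 15 libraries. Among the haemostasis genes, 3 of 16 were called lower, among them coagulation factor F8 (-1.48 ± 0.16) and the protein C receptor Procr (-1.21 ± 0.14). Of 14 matrix genes, 2 were called higher, Fn1, fibronectin (1.67 ± 0.15), and Htra1 (1.17 ± 0.13), and none lower (median 0.442). Fibroblast genes moved along, with 6 of 7 tested positive, all 6 at an unadjusted p under 0.05 (19.1% of all genes upwards, with 50.1% positive), 1 called higher and a median of 0.714, and their part in the matrix values was not tested. All 4 erythroid genes tested were called lower (median -2.54). Mgp had 0.11 ± 0.11, Bgn -0.26 ± 0.09, Eln 0.69 ± 0.13, Clu 0.52 ± 0.09 and Lox 0.93 ± 0.11, none past the threshold. Of 23 flow and nitric oxide genes, 2 were called higher, Ptgis (1.42 ± 0.16) and Kcnn3 (1.75 ± 0.22), and 2 lower, Ptgs1, cyclooxygenase 1 (-1.48 ± 0.09), and the quinone reductase gene Nqo1 (-2.10 ± 0.19), with a median of -0.011. Nos3 had -0.07 ± 0.07, Edn1 0.46 ± 0.08 and Ace 0.57 ± 0.11, and the adhesion gene Vcam1 0.48 ± 0.15, none past the threshold.

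Against 858 Vwf Plvap ECs, which carried Vwf and Plvap but neither Cytl1 nor Pgm5, 5738 genes were tested, 277 were called higher in luminal-type ECs (4.83%) and 132 lower (2.3%). Ptprj had a mean of 916 against 14.3 CPM (5.83 ± 0.15), Spon1 187 against 2.99 CPM (5.57 ± 0.21), Ptgis 222 against 6.96 CPM (4.65 ± 0.26) and Mgp 5467 against 364 CPM (3.93 ± 0.21). Adh7 had no UMI in the compared set, so no fold is given. Hey1 (-2.50 ± 0.15), Dll4 (-1.55 ± 0.10), the lipoxygenase Alox12 (-3.44 ± 0.23) and the growth factor binding protein Igfbp3 (-2.60 ± 0.18) were lower. Unscaled by TMM, Sox17 had a mean of 206 CPM in luminal-type ECs against 376 in Vwf Plvap ECs, and Sema3g 171 against 419.5 CPM. Of 19 arterial genes 2 were called higher and 5 lower (median -0.642), and of 13 matrix genes 8 were higher (median 1.09).

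Against 9444 Sema3g Stmn2 ECs, which carried Sema3g or Stmn2 but none of Vwf, Cytl1, Pgm5 and Plvap, 9139 genes were tested, 689 were called higher in luminal-type ECs (7.54%) and 372 lower (4.07%). Adh7 had 171 against 0.677 CPM (7.86 ± 0.20). Of the flow and nitric oxide list 8 of 24 genes were called higher and 2 lower (median -0.122), and of the BMP and TGF-beta list 2 of 18 higher and 1 lower (median 0.069), against a median of -0.021 over all genes tested. Selp had 115 against 1.16 CPM (6.69 ± 0.30), Vcam1 differed by 5.36 ± 0.19 from a mean of 456 CPM in luminal-type ECs, Bmp4 by 5.27 ± 0.15 from 432 CPM, and Ptgs1 by 4.07 ± 0.13 (141 against 8.40 CPM). Matrix genes were called higher in 12 of 14 cases (median 2.31) and capillary genes lower in 12 of 15 (median -1.78). Cxcl12 had 445 against 2019 CPM (-2.19 ± 0.10), lower in every library. The arterial genes were split, with 6 of 18 called higher, Hey2 at 5.98 ± 0.22 among them, and 3 lower, with Hey1 at -1.65 ± 0.13. Sox17 had a mean of 206 against 302 CPM, unscaled by TMM.

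The number of luminal-type ECs varied more between libraries than between groups. Their share of ECs was 0.893%, 1.74%, 1.78% and 5.65% in the Y VEH libraries (females F1 and F2, then males M1 and M2), 0.908%, 1.88%, 2.91% and 3.86% in Y FIS, 1.62%, 1.35% and 0.935% in O VEH (F1, F2 and M1), and 2.25%, 0.803%, 3.17% and 1.16% in O FIS. Exact 95% binomial intervals, which cover counting error only, ran from 0.547% to 1.38% for the first of these. Y VEH M2 stood above all other libraries, and all groups overlapped.

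O VEH had 1.30% ± 0.344 (SD, n = 3) and Y VEH 2.52% ± 2.13 (SD, n = 4), a difference of -1.22 percentage points (two-sided exact permutation test, p = 0.343, adjusted p = 0.914 over 4 comparisons, where 3 against 4 libraries can reach 0.0571 at best). The difference between O FIS (1.84% ± 1.08, SD, n = 4) and O VEH was 0.543 points (exact permutation p = 0.514), and that between Y FIS (2.39% ± 1.28, SD, n = 4) and Y VEH was -0.125 points (exact permutation p = 1.0, smallest possible 0.0286). Between O FIS and Y VEH it was -0.672 points (exact permutation p = 0.686). Without Y VEH M2 the differences from Y VEH were -0.169 points for O VEH, 0.922 for Y FIS and 0.374 for O FIS. Cells were also thinned to 2000 UMIs, which left out 219 luminal-type ECs and 8530 other ECs as too shallow. The rule was then applied to the thinned counts, so the cells that met it were not the same cells, and could include cells whose Plvap UMIs had been lost (in Y VEH F1 34 cells met it, against 20 at full depth). The shares were 1.77%, 2.69%, 1.58% and 5.88% in Y VEH, 1.18%, 2.59%, 3.38% and 3.88% in Y FIS, 1.97%, 1.42% and 0.952% in O VEH, and 3.22%, 1.22%, 3.60% and 1.37% in O FIS. The age difference was then -1.53 points (exact permutation p = 0.229). No difference between groups was detectable with these libraries.

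Shares were also set side by side by sex, in a comparison added after the data had been seen. The 8 female libraries had a minimum of 0.803%, a median of 1.48% and a maximum of 2.25%, and the 7 male libraries 0.935%, 2.91% and 5.65%. The mean difference was -1.35 percentage points, female minus male (exact permutation p = 0.0423 pooled and 0.0494 within groups, over 648 arrangements). Without Y VEH M2 it was -0.871 points (exact permutation p = 0.0906 pooled and 0.0957 within groups). Leaving out each library in turn gave between -1.66 and -0.871 points, and the pooled exact permutation p was not under 0.05 in 10 of 15 cases, so the call, though not the sign, depended on single libraries. At 2000 UMIs per cell it was -0.941 points (exact permutation p = 0.193 and 0.204), and with the stricter markers -0.893 points (exact permutation p = 0.0581 and 0.0694). As a share of all cells kept it was -0.475 points (exact permutation p = 0.0417 and 0.0494), and the pooled p was under 0.05 in 6 of 15 cases with 1 library left out.

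**Figure D3:**
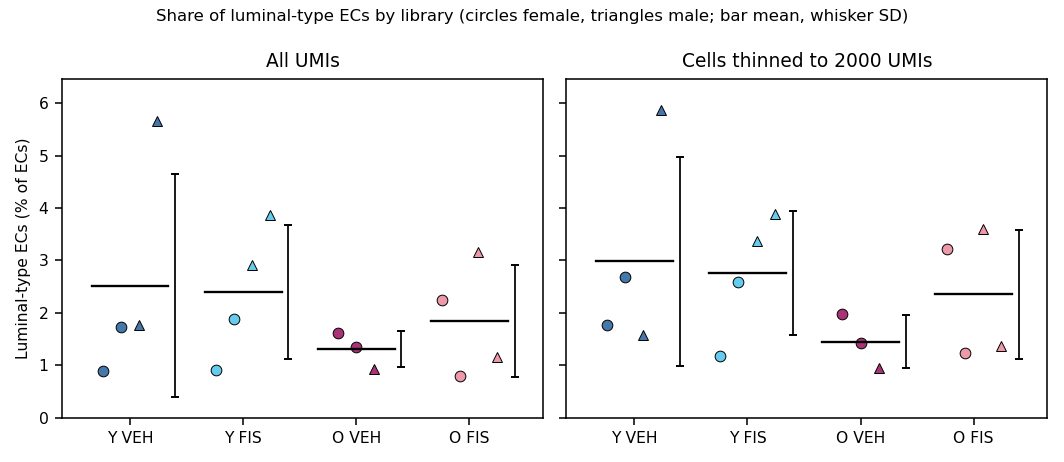
Each point is the share of luminal-type ECs among the ECs of 1 library (y axis, %), with females as circles and males as triangles, the group mean as a bar and the SD as a whisker, for all UMIs (left) and for cells thinned to 2000 UMIs (right). Y VEH M2 (5.65% and 5.88%) lies above all other libraries, and the groups overlap in both panels.

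Next, the comparisons of the study were made within the luminal-type ECs, with all 15 libraries in 1 edgeR quasi-likelihood model of group and sex. DARs, differentially abundant RNAs, were genes detected in at least 10% of the cells of either group, with a log2 fold change of at least 0.25 in size and an adjusted p (Benjamini-Hochberg) below 0.05. Of 5945 genes tested, 3 were DARs between O VEH and Y VEH (0.0505% of the genes tested). Fabp5 was higher in old mice, and Cmss1 and Cdk8 were lower.

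Fabp5 encodes a fatty acid binding protein of ECs and keratinocytes and lies at chr3:10077602-10081674 on the plus strand (GRCm39), where a noncoding gene overlaps it on the other strand. Its level was 319, 424, 389 and 334 CPM in Y VEH (F1, F2, M1, M2) and 914, 899 and 672 CPM in O VEH (F1, F2, M1). It was 685, 623, 377 and 465 CPM in Y FIS and 442, 353, 351 and 402 CPM in O FIS. Every O VEH library lay above every library of Y VEH and O FIS, whereas O VEH M1 lay just below Y FIS F1. The age difference was 1.09 ± 0.19 (log2, SE; edgeR adjusted p = 0.0201). The difference between O FIS and O VEH was -1.03 ± 0.18, not a DAR (edgeR adjusted p = 0.0849). It passed with DESeq2 (-1.03, adjusted p = 6.11e-05) and without the filter on low counts (-0.99, edgeR adjusted p = 0.00404). In 9 of 11 alternatives it stayed uncalled, with fold changes from -1.10 to -0.206 over the 11. It was also uncalled in 15 of 15 fits that left out 1 library (edgeR adjusted p from 0.0637 to 0.773).

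Fabp5 rested on few molecules and on the Plvap condition. The libraries held between 26 and 212 UMIs of it, and it was detected in 42.0% of luminal-type ECs of O VEH and 28.2% of Y VEH, against 20.8% of leukocytes, 17.9% of fibroblasts and 71.0% of the other ECs. The age difference of the other ECs was 0.13 (edgeR adjusted p = 0.864), and the difference between the 2 age differences was 1.04 ± 0.23 (edgeR adjusted p = 0.165), so the age effect is not shown to differ between the sets. With Plvap no longer required to be 0 it was 0.31 ± 0.26 (edgeR adjusted p = 0.703) in 5127 cells. Among the 199 cells without any of the 6 mesenchymal transcripts in the 12 libraries with enough of them, where Y VEH kept its 2 male libraries only, its sign turned (-0.83, edgeR adjusted p = 0.891) and none of the 3 genes was a DAR, with Cmss1 at -1.39 (edgeR adjusted p = 0.701) and Cdk8 at -1.18 (edgeR adjusted p = 0.775). The adjusted p of Fabp5 was above 0.05 in 6 of 15 fits that left out 1 library, namely any of the O VEH libraries or Y VEH F1, F2 or M2, with a fold change between 0.98 and 1.17 over all 15. With the stricter markers it was 2.12 (edgeR adjusted p = 0.0584), at 2000 UMIs per cell 1.16 (edgeR adjusted p = 0.101) and in a fit of O VEH and Y VEH alone 1.11 (edgeR adjusted p = 0.0641). Over 11 alternatives other than leaving out a library the fold change ran from -0.83 to 2.12, and 6 of the 11 kept the call.

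Cmss1, a nucleolar protein gene at chr16:57122363-57427253 (minus strand, GRCm39), had 5516, 6260, 7738 and 6558 CPM in Y VEH (F1, F2, M1, M2) and 2665, 1912 and 2525 CPM in O VEH (F1, F2, M1), a difference of -1.44 ± 0.21 (log2, SE; edgeR adjusted p = 0.00502). O FIS had 4674, 2572, 4002 and 4527 CPM, of which F2 lay within the O VEH range, and Y FIS had 6183, 6455, 7147 and 4506 CPM. Filip1l lies on the opposite strand within the span of Cmss1, and its own difference was 0.37 ± 0.26 (edgeR adjusted p = 0.828). Without O VEH M1 or O VEH F2 neither Cmss1 nor Cdk8 passed the threshold, and Cdk8 also failed without Y VEH F1 or Y VEH M2. Cdk8, a kinase of the Mediator complex at chr5:146167823-146241320 (plus strand, GRCm39), had 1290, 1002, 1461 and 1356 CPM in Y VEH and 708, 382 and 476 CPM in O VEH (-1.30 ± 0.22, edgeR adjusted p = 0.0201), with 861, 584, 773 and 841 CPM in O FIS. In the other ECs both fell with age too, with -1.69 for Cmss1 (edgeR adjusted p = 0.00269) and -1.58 for Cdk8 (edgeR adjusted p = 0.0100).

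**Figure D4:**
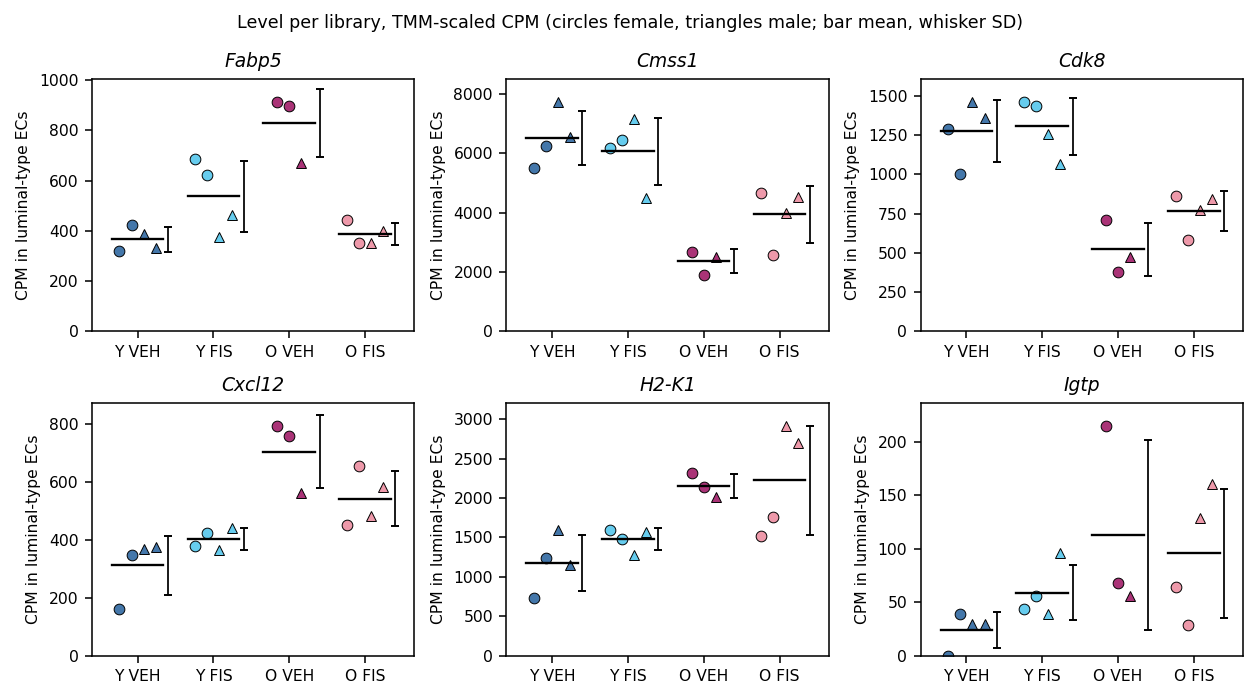
Each panel gives the level of 1 gene in the luminal-type ECs of each library (y axis, TMM-scaled CPM, from 0) by group, with females as circles, males as triangles, the mean as a bar and the SD as a whisker. Fabp5, Cxcl12 and H2-K1 lie higher in all O VEH than in all Y VEH libraries and Cmss1 and Cdk8 lower, and 1 of the O VEH libraries of Igtp stands at 215 CPM. Fabp5, Cmss1 and Cdk8 were named by a rule that asked for no overlap, so their separation was fixed by the choice. For 3 against 4 libraries such separation has an exact permutation p of 0.0571 at best. Its share over all genes is not given, so it cannot be told whether the separation is unusual.

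Genes of the interferon response and of antigen presentation had positive age differences throughout, without any of them being a DAR. In the interferon list 33 of 33 tested genes were positive, with a median of 0.992 against -0.016 over all genes, and 22 of them had an unadjusted p under 0.05, where 3.94% of all genes did so upwards and 3.28% downwards. The same held for 15 of 15 class I genes (median 0.721, 10 with such a p) and 5 of 5 class II genes (median 1.46, all 5). Class II genes are also genes of macrophages and B cells: in luminal-type ECs the summed level of 8 macrophage genes ran from 93.8 to 1351 CPM in Y VEH and from 76.0 to 219 CPM in O VEH, and that of 6 B cell genes from 55.8 to 154 and from 52.0 to 112 CPM. These lists were compiled with the results of these data known, and their genes share cells and libraries.

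H2-K1, a class I heavy chain, had 725, 1242, 1594 and 1147 CPM in Y VEH (F1, F2, M1, M2) and 2316, 2141 and 2015 CPM in O VEH (0.94 ± 0.22, log2 and SE; edgeR adjusted p = 0.218, not a DAR). B2m, the light chain of class I, had 848, 886, 1343 and 930 CPM in Y VEH and 2186, 1573 and 1210 CPM in O VEH (0.72 ± 0.23, edgeR adjusted p = 0.386), where Y VEH M1 and O VEH M1 overlapped. Igtp, an interferon-induced GTPase, had 0, 38.5, 29.5 and 29.2 CPM in Y VEH and 215, 67.8 and 56.0 CPM in O VEH, with 0 to 72 UMIs per library (2.33 ± 0.60, edgeR adjusted p = 0.261). The guanylate-binding protein gene Gbp4 differed by 1.61 ± 0.37 and the peptide transporter gene Tap1 by 1.82 ± 0.51 (edgeR adjusted p = 0.218 and 0.272).

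Such genes often carry an interferon-stimulated response element, searched here as GAAA, 2 bases of any kind and GAAA again, on both strands, in the promoters of RefSeq (250 bases before to 50 after each start site, GRCm38.p6). Counted per gene, it occurred in 14 of 24 tested interferon genes with a promoter there (58.3%) and in 3 of 13 class I genes (23.1%). Of all 27025 genes with a promoter 3.99% held it, and of the 4721 of them tested here 4.17%. Counted per promoter, it occurred in 3.44% of 32851. It occurred in 2 of 7 matrix genes (28.6%) and in 2 of 16 arterial genes (12.5%). None of 9 capillary genes and none of 3 class II genes held it. The promoters of Igtp and B2m are shown because they carry 1 match each, at 34 and 139 bases before the start site. The window shown for Igtp is chr11:58199306-58199605 and that for B2m is chr2:122147437-122147736 (GRCm38.p6), both on the plus strand. Capitals mark the match, which describes letters and not binding.
Igtp: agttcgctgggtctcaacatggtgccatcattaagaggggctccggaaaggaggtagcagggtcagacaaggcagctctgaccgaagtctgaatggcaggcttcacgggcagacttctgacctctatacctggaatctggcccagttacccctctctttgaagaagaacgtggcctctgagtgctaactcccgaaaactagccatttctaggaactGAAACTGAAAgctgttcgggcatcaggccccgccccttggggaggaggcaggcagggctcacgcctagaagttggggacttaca
B2m: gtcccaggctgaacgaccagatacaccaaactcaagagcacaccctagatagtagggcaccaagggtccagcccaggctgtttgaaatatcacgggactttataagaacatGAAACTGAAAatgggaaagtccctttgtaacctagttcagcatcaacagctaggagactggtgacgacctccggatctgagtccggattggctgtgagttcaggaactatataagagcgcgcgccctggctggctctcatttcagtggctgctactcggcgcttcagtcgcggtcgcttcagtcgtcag

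Capillary genes were also positive with age, 15 of 15 tested with a median of 0.447 and 6 with an unadjusted p under 0.05 (3.94% of all genes upwards, with 48.1% positive and a median of -0.016), all short of a DAR except Fabp5. Lpl had 1.07 ± 0.31, the nucleoside transporter Slc28a2 0.96 ± 0.31, Cd300lg 0.87 ± 0.28 and Cd36 0.57 ± 0.19 (edgeR adjusted p = 0.318, 0.417, 0.409 and 0.425). Cells with Pgm5 alone made up between 12.2% and 55.0% of luminal-type ECs per library (median 34.3%), and their part in this was not tested. Among the arterial, matrix, tone and adhesion genes described above, the age differences were Gkn3 -0.02 ± 0.37, Sox17 -0.00 ± 0.25, Eln -0.26 ± 0.30, Nos3 -0.28 ± 0.25, Edn1 -0.14 ± 0.30, Vcam1 0.19 ± 0.32 and Ptgis -0.95 ± 0.31, none a DAR. Of 19 arterial genes 12 were positive (median 0.145) and of 14 matrix genes 6 (median -0.126).

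Of the SASP transcripts (senescence-associated secretory phenotype) named by the study, 5 could be tested and all were positive (median 0.637); the study chose them on these samples, so they are not independent evidence. Cxcl12, a chemokine, had 160, 347, 369 and 373 CPM in Y VEH (F1, F2, M1, M2) and 793, 759 and 560 CPM in O VEH (1.12 ± 0.23, log2 and SE; edgeR adjusted p = 0.0995, not a DAR). Its O FIS mean was 542 CPM and its difference from O VEH -0.40 ± 0.22. The canonical senescence genes had 4 of 10 positive values and a median of -0.058. Mesenchymal genes used to describe the endothelial-to-mesenchymal transition had 8 of 10 negative values (median -0.944), none a DAR. Acta2, smooth muscle actin, had 3747, 125, 78.7 and 136 CPM in Y VEH (F1, F2, M1, M2) and 4.48, 17.0 and 90.9 CPM in O VEH (F1, F2, M1), a difference of -4.72 ± 1.30. Tagln, transgelin, had 2863, 48.2, 108 and 142 CPM in Y VEH and 17.9, 21.2 and 84.0 CPM in O VEH (-4.19 ± 1.23). Y VEH F1 stood far above all other libraries of these groups for both genes, and the rest of the Y VEH values overlapped those of O VEH. Col3a1, a fibrillar collagen, had 209, 173, 34.4 and 75.1 CPM in Y VEH and 26.9, 21.2 and 0 CPM in O VEH (-2.56 ± 0.66). Without Y VEH F1, a fit added after the data had been seen, the differences were -2.01 ± 0.92 for Acta2, -1.56 ± 0.91 for Tagln and -2.20 ± 0.68 for Col3a1, with 8 of 10 genes negative and a median of -0.740. The summed smooth muscle genes stood between 228 and 7846 CPM in Y VEH, with the highest value in Y VEH F1, and between 62.5 and 231 CPM in O VEH, and the fibroblast genes between 866 and 1746 against 452 and 625 CPM, and their part in these differences was not tested.

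Fisetin gave no DAR in either age group. Between O FIS and O VEH 0 of 5945 genes were DARs (0%, 252 with an unadjusted p under 0.05, and 1 by DESeq2), between Y FIS and Y VEH 0 (0%, 271 with such a p, and 0 by DESeq2), and between O FIS and Y VEH 0 (0%, 366 with such a p, and 9 by DESeq2). In old mice 14 of 15 capillary genes had negative values under fisetin (median -0.448) and 29 of 33 interferon genes (median -0.338), against 0.002 over all genes, while 7 of 10 mesenchymal genes of the transition list were positive (median 0.739, 5 with an unadjusted p under 0.05, as 2.12% of all genes upwards). Smooth muscle genes were positive in 4 of 4 cases (median 2.40, 2 with such a p), with sums of 157 to 755 CPM in O FIS against 62.5 to 231 in O VEH, and fibroblast genes in 7 of 7 (median 0.320, none with such a p). In young mice 13 of 15 capillary genes were positive (median 0.396) and 30 of 33 interferon genes (median 0.448), against -0.017 over all genes, and all 5 class II genes were negative (median -0.874). Both macrophage genes tested were negative too (median -2.91, both with an unadjusted p under 0.05, as 2.52% of all genes downwards), and the summed macrophage genes ran from 0 to 152 CPM in Y FIS against 93.8 to 1351 CPM in Y VEH. With Plvap allowed, 14 of 16 capillary and 33 of 37 interferon genes were negative in old mice, 1 and 6 with an unadjusted p under 0.05 downwards. Of all 11212 genes 49.7% were positive there, and 249 were lower at such a p. In young mice 14 of 16 and 31 of 37 were then positive, 2 and 5 with such a p upwards. There 50% of all 11212 genes were positive, and 231 were higher at such a p. The part of RNA from other cells in these values was not tested. The contrasts of O FIS with O VEH and of O VEH with Y VEH share the O VEH libraries, and those of Y FIS and of O VEH with Y VEH share the Y VEH libraries, so opposite or like signs between them are in part built in.

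The effect of fisetin itself differed between old and young mice for 1 gene (0.0168% of genes tested). Fabp5 had a difference of differences of -1.52 ± 0.25 (log2, SE; edgeR adjusted p = 0.0397), made up of -1.03 in old and 0.49 in young mice. Of 15 capillary genes 14 were negative (median -0.883) and of 33 interferon genes 32 (median -0.743), against 0.016 over all genes, none but Fabp5 past the threshold. Genes of other cell types also had large values here, none a DAR: both macrophage genes were positive (median 3.60, both with an unadjusted p under 0.05, as 2.42% of all genes upwards), as were 3 of 4 smooth muscle genes (median 3.94, 2 with such a p) and the single B cell gene tested (2.45, with such a p), and their part in the list values was not tested. Fabp5 itself kept an adjusted p under 0.05 in 3 of 15 fits that left out 1 library, those without Y VEH M1, Y FIS M1 or O FIS M2, and in 4 of 10 other alternatives, with a range from -1.94 to -0.23.

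**Figure D5:**
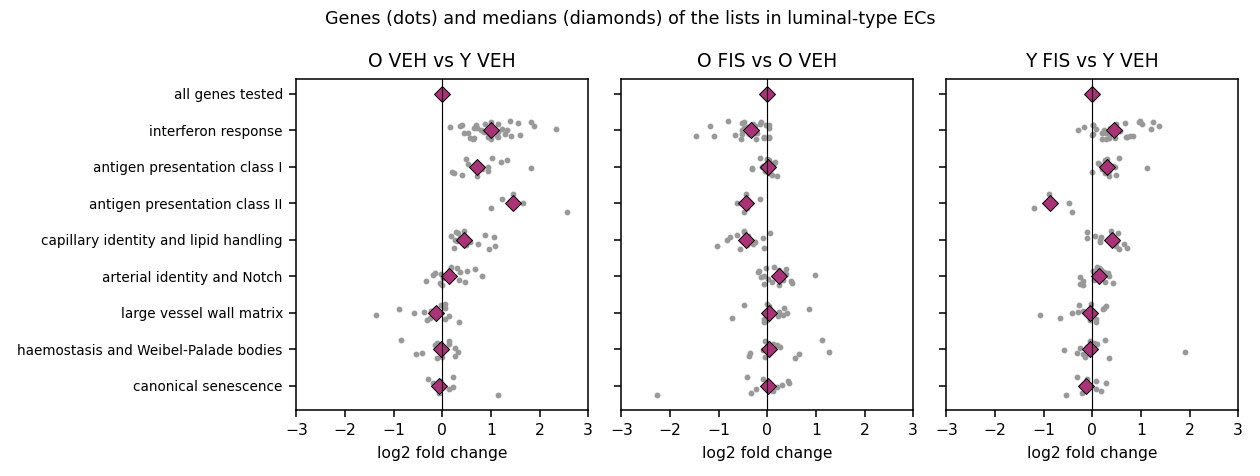
Dots are genes and diamonds medians of 8 gene lists and of all genes tested, in luminal-type ECs, as log2 fold changes (x axis) for O VEH against Y VEH, O FIS against O VEH and Y FIS against Y VEH. With age the medians of the interferon list (0.992), class I (0.721), class II (1.46) and capillary list (0.447) lie right of 0, and the arterial, matrix, haemostasis and senescence medians lie near 0.

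Between female and male libraries 10 genes were DARs (0.168% of genes tested). Xist and the X-linked Kdm6a were higher in females, and the Y-linked Ddx3y, Eif2s3y and Uty were lower, which checks the labels. Of the others, Ccn1, a matricellular growth regulator, had 135 to 533 CPM in the 8 female libraries and 668 to 1385 CPM in the 7 male libraries, without overlap (-1.31 on the log2 scale). Aff2 (-1.79), Mettl7a1 (-1.20) and Cadm1, an adhesion molecule (-1.25), also did not overlap, and Sox5 (-1.40) overlapped. Sox5 and Cadm1 were not past the threshold without Y FIS F2, Y FIS M1, O FIS M1 or O VEH M1 (highest edgeR adjusted p 0.0891), nor with the stricter markers or with Plvap allowed. With Plvap allowed the values of Cadm1, Mettl7a1 and Aff2 were -0.62, -0.54 and -0.97, and Aff2 was not called, whereas without any mesenchymal UMI Mettl7a1 had -2.29 and neither Ccn1 nor Sox5 was called. Of 33 interferon genes 32 had lower values in females (median -0.385, against 0.003 over all genes). With Plvap allowed 27 of 37 did (median -0.132, all genes -0.005, with 48.8% of them positive). Of the 37, 3 were lower and 3 higher at an unadjusted p under 0.05. In that fit 8 of 26 immediate early and heat shock genes, a list with Ccn1, were lower and 2 higher at such a p. Over all 11212 genes 736 were lower and 769 higher at such a p.

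The age difference was finally tested for whether it differed between luminal-type and other ECs of the same libraries. Of 12243 genes, 2 were called (0.0163%). Kirrel3, an immunoglobulin-type adhesion molecule, had 98.3, 241, 221 and 223 CPM in Y VEH and 479, 187 and 420 CPM in O VEH in luminal-type ECs, against 53.6, 54.6, 50.3 and 132 CPM and 53.1, 27.9 and 31.9 CPM in the other ECs (1.77 ± 0.34, log2 and SE; edgeR adjusted p = 0.0353). O VEH F2 lay within the Y VEH range of the luminal-type ECs. Inpp4b, a phosphoinositide phosphatase, had 6, 7, 3 and 15 UMIs in Y VEH and 0, 1 and 1 in O VEH (-4.62 ± 0.86, edgeR adjusted p = 0.0353), so the old group held 2 molecules of it. Neither gene was called without Y VEH F1 or with RLE scaling, and a single gene was called without Y VEH M2 or without O VEH F2.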

How the data were processed

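The authors deposited filtered count matrices (UMI counts per gene and cell, not normalized), made per the labels with Cell Ranger 8.0.1 on GRCm39. Their notes also name Seurat 5.2.0. The matrices hold 33696 features and 15 libraries of mouse aorta, and a count has no correction for free RNA.

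Cells were filtered and chosen by the stated rule, and their counts were summed per library, the unit of replication. Groups came from the sample labels. Luminal-type ECs were compared between groups with edgeR 4.0.16 (R 4.3.3, limma 3.58.1): filterByExpr, TMM scaling and the quasi-likelihood test on group and sex, with p-values adjusted by Benjamini-Hochberg over all genes tested. Comparisons with other ECs were paired by library, with at least 10 cells per library. Shares used two-sided exact permutation tests (scipy 1.17.1), and Scrublet (scanpy 1.11.5) used an expected rate of 0.08. Library depth of the chosen cells (89596 to 597637 UMIs) limits low genes.

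Alternatives were DESeq2 1.42.0, RLE scaling, no low count filter, no sex term, a replicate block, only the compared groups, no doublets, stricter gates, thinning to 2000 UMIs and leaving out each library. Named genes were the 12 largest non-overlapping DARs per direction and, against other ECs, the 15 highest and 10 lowest called genes with at least 100 CPM and 1 direction in every library, of which the text gives a selection, plus list members. The members and lists were chosen with earlier results of these data known. Promoters came from RefSeq on GRCm38.p6 and gene positions from GENCODE on GRCm39, which were not mixed.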

Additional observations from a re-analysis of the deposited data

Results flagged for a closer look

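In groups of 4 libraries, 78 sets of values were searched for a single library far from the others, a rule that chance meets in about 1 of 20 sets, and 3 met it. Cxcl12 in Y VEH F1, the library with the fewest luminal-type ECs (20), was lowest of 4 at 159.7 CPM. B2m in Y VEH M1 was highest of 4 at 1343 CPM, and Ptgis in O FIS M2 was lowest of 4 at 127.6 CPM.

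A direct test found 3 effects that differed between groups of samples or cells. The fisetin effect on Fabp5 differed between old and young mice by -1.52 on the log2 scale. The age difference of Inpp4b in luminal-type ECs minus that in the other ECs was -4.62, and that of Kirrel3 was 1.77. With 1 library left out the Fabp5 call was kept in 3 of 15 fits. Genes called for the age difference between sets numbered 0 to 5 over such fits and 0 to 45 over 7 alternatives.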

How the results depend on the processing

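Counts of DARs moved most with the filter on low counts. Without it they were 49 for O VEH against Y VEH, 16 for O FIS against O VEH, 14 for Y FIS against Y VEH, 49 for O FIS against Y VEH, 129 for sex and 21 for the fisetin effect in old against young mice, and called genes numbered 1186 against Vwf Plvap ECs, 2433 against Sema3g Stmn2 ECs and 45 for the age difference in luminal-type against other ECs. With DESeq2 there were 9 DARs for O VEH against Y VEH, 1 for O FIS against O VEH and 9 for O FIS against Y VEH. The stricter gate gave 1 DAR for O FIS against Y VEH, 2015 called genes against other ECs, 677 against Vwf Plvap ECs and 9 for the age difference between sets. Without any mesenchymal UMI there were 0 DARs for O VEH against Y VEH, 658 called genes against other ECs, 141 against Vwf Plvap ECs, 277 against Sema3g Stmn2 ECs and 1 for the age difference between sets, and Fabp5 turned to -0.834 for O VEH, -0.372 for Y FIS and -1.438 for O FIS against Y VEH. Thinning to 2000 UMIs gave 4 sex DARs, 159 called genes against Vwf Plvap ECs, 219 against Vwf Cytl1 Plvap ECs and 7 for the age difference between sets, which was 0 with RLE scaling. With Plvap allowed, chosen after seeing the data, DARs were 19 for O VEH against Y VEH, 1 for Y FIS against Y VEH, 4 for O FIS against Y VEH and 38 for sex. The fisetin effect on old against young mice had 0 DARs without the sex term, with the replicate block, the stricter gate, no mesenchymal UMI, thinning or Plvap allowed. The causes were not tested.

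Deviations from group and sex means correlated from -0.284 to 0.066 over 21 pairs of same-numbered libraries (median -0.087). Over 21 pairs of unlike number they ran from -0.378 to 0.104 (median -0.115). The pairs share libraries, so this cannot decide whether the numbers pair them. The replicate block gave 6 DARs for O VEH against Y VEH, with Fabp5 at 1.12, and turned the share difference of Y FIS against Y VEH to 0.102 on the log-odds scale. That difference also turned as a share of all cells (0.138 points, and 0.0397 for O FIS against Y VEH) and with Plvap allowed (1.37 points).

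Leaving out 1 library gave 0 to 4 DARs for O VEH against Y VEH (0 without O VEH M1 or O VEH F2, 1 without Y VEH F1 or Y VEH M2), 0 to 1 for O FIS against Y VEH (1 without Y VEH M1), 8 to 19 for sex (16 without Y VEH F2, 19 without Y VEH M1), 0 to 1 for the fisetin effect by age and 0 to 5 for the age difference between sets (5 without Y VEH M1). Fabp5 in O FIS against Y VEH ranged from -0.026 to 0.157, negative without Y VEH F1 or O FIS M2. Share differences ranged from -1.76 to -0.169 for O VEH, from -0.665 to 0.922 for Y FIS and from -1.21 to 0.374 for O FIS against Y VEH, each highest without Y VEH M2, and from 0.102 (without O FIS M1) to 0.890 for O FIS against O VEH. With 20 to 149 cells per library, low genes and small differences were not detectable.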

Other observations

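Other gene lists were described in luminal-type ECs against the other ECs of the same libraries. Over all genes tested 6.53% were called higher and 4.08% lower. Of 19 BMP and TGF-beta genes 3 were called higher (median 0.037, all genes -0.060), Bmp4 among them. Of 21 haemostasis and Weibel-Palade body genes 8 were called higher and 1 lower (median 0.351), and of 17 adhesion and junction genes 3 higher and 2 lower (median 0.196). Of 26 immediate early and heat shock genes 5 were called higher and none lower (median 0.26).

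With Plvap allowed, in 5127 cells, the 19 DARs between O VEH and Y VEH were 11 higher and 8 lower. Serpina3g (2.82 on the log2 scale), a serine protease inhibitor, Zbp1 (2.00), a sensor of nucleic acids, and Rsad2 (1.41), the antiviral protein viperin, were higher, and Cmss1 (-1.55), Cdk8 (-1.45) and Camk1d (-1.17) lower. This selection of cells was added after the data had been seen.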
